A study of Macaca mulatta with 24 samples.

Results

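Jejunum of rhesus macaques was compared between animals exposed to 7.4-Gy total-body irradiation (TBI) and examined on day 7 and animals that were never irradiated. The comparison used 8 of the 24 arrays of the study, chosen by their titles alone: 4 irradiated at 7.4 Gy and labelled day 7, and 4 unirradiated controls, labelled day 4. All animals were young-adult males, and the TBI was a single uniform dose of gamma rays from a cobalt-60 source, with the controls sham-irradiated. The controls thus carry the label of another day than the irradiated animals, and a difference between days of sampling and an effect of TBI cannot be told apart in this comparison. The remaining groups were sampled on day 4, 7 or 12 after a dose of 6.7 or 7.4 Gy. Each array held RNA of a full-thickness piece of jejunum from 1 animal, without pooling, hybridized to a 1-color Agilent rhesus macaque array.

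The lining of the jejunum is renewed from the crypts, where stem cells and their rapidly dividing offspring supply the absorptive enterocytes, goblet cells and hormone-producing cells of the villi. Dividing crypt cells are among the most radiation-sensitive cells of the body: after a high dose they stop dividing or die, with the transcription factor p53 as a main switch, and crypts with surviving cells later regrow by intense proliferation. Bone marrow is also highly sensitive, so that new blood cells and platelets become scarce in the days after TBI. A full-thickness piece holds epithelium, immune cells, vessels, blood and muscle together, so that fewer cells of a type and less RNA per cell cannot be told apart here.

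The level of a probe was the log2 of its background-corrected signal minus the 75th percentile of its array, so that a difference of 1 between levels is a 2-fold difference in signal. Of 43603 probes, 28171 (64.6%) had a signal well above background throughout at least 1 of the study groups and were tested. A probe was called when the adjusted p of limma (Benjamini-Hochberg, over the 28171 probes) was under 0.05 and the change was at least 2-fold. Changes are given as irradiated minus control, with the standard error (SE) from limma and 4 arrays in each group. The p-values measure the spread between these arrays. Values of single arrays are listed in the order of replicates 1 to 4, which is only a naming order.

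Markers of the labelled tissue and of neighbouring ones were examined. The enterocyte lipid carrier FABP1, which the whole small bowel expresses, lay between 7.62 and 7.92 in the controls and between 6.99 and 7.58 in the irradiated samples. Of 12 colon and stomach markers on the array, 7 were among the tested probes and 0 were called. The colonic carbonic anhydrase CA1 was well above background on 0 of the 8 arrays, whereas MS4A12, another colon marker, was so on 3 arrays of each group. The B cell surface protein MS4A1 passed background on 2 control arrays and on 0 irradiated arrays, as did the erythroid enzyme ALAS2.

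Irradiated array 1 and control array 4 had a higher background than the rest. They held 20360 (46.7%) and 22347 (51.3%) probes well above background, against 34838 to 38226 (79.9% to 87.7%) on the other 6 arrays. They lay on slides 5 and 4, where the arrays of other groups were also low, at 39.4% to 62.6%. Among these were replicates 2 and 3 of 7.4 Gy day 4, at 58.9% and 39.4%. The 75th percentile of the signal ranged only from 794 to 1035 over the 8 arrays, and no spot was saturated. The controls lay on slides 1 to 4 at position 1. Irradiated arrays 3 and 4 lay on slides 1 and 2 at position 4, and irradiated arrays 1 and 2 on slides 5 and 6 at position 3, which were scanned on the second day. Slides 1 and 2 therefore hold both groups and give a difference within a slide, whereas position on the slide and group cannot be told apart. On the first principal component of the 8 arrays (28.4% of the variance) the controls lay between -40.4 and -26.7, irradiated arrays 1, 2 and 4 at 84.3, 24.6 and 36.8, and irradiated array 3 at -1.53, the nearest of the irradiated arrays to the controls.

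On day 7 after 7.4-Gy TBI, 81 probes were called (0.288% of those tested), 33 up (0.117%) and 48 down (0.17%). They carried 51 gene symbols, of which 20 rose and 31 fell, and 20 of the probes had no symbol. The largest rises among called genes with a symbol were those of metallothioneins, small metal-binding proteins, and the largest falls those of hemoglobin chains. Genes of mitosis and targets of p53 were among the other rises, and genes of fat storage, peptide and sugar uptake, antigen presentation and the circadian clock were among the falls. In all 81 probes the 4 irradiated arrays lay on 1 side of the 4 controls, as they did in 5.87% of the tested probes on the upper side and 5.38% on the lower. Of the 48 probes that fell, 19 were not well above background on irradiated array 1 but were so on the other irradiated arrays, and 3 of the 19 were also dim on a control. With dim arrays raised to the lowest signal that passed background there, the groups stayed apart in 77 of the 81.

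**Figure D1:**
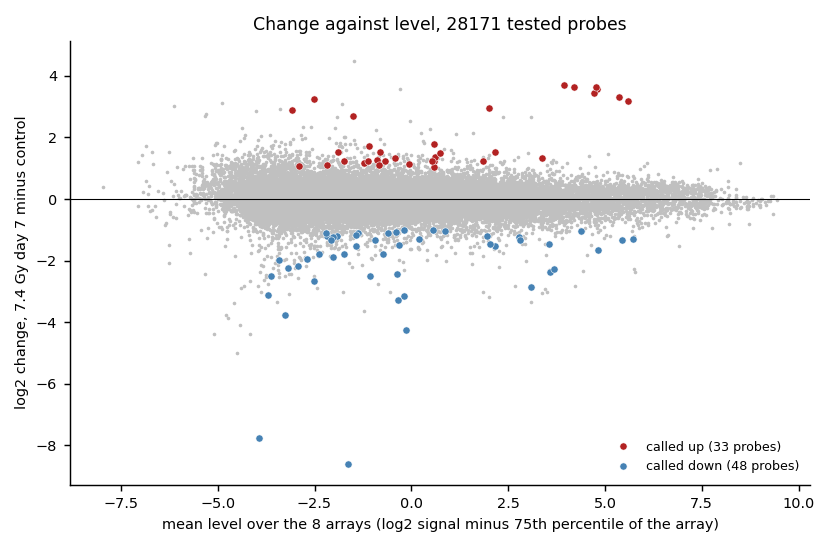
Log2 change on day 7 after 7.4-Gy TBI against the mean level over the 8 arrays, 1 point per tested probe (28171 in all), with the 33 probes called up in red and the 48 called down in blue. The 7 metallothionein probes among the red points lie between 2.95 and 3.69, and the lowest blue points are the hemoglobin chain HBB at -8.62 and -7.77, as read, from probes that were above background on 2 and 0 of the irradiated arrays.

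The number of calls depended on single arrays. Leaving out any array other than irradiated array 3 left between 11 (without irradiated array 2) and 25 (without irradiated array 1) called probes, with 13 without control 1 or control 2, 16 without control 3 or control 4 and 15 without irradiated array 4, and leaving out irradiated array 3 gave 229. Of the 81 probes, 11 were called in all 8 of these fits and 8 in none. A further 48 were called in a single fit, each time the one without irradiated array 3. Within slides 1 and 2, 65 and 75 of the 81 probes differed by at least 2-fold. The direction was already fixed by the separation of the groups, and the size in part, as the same arrays made the calls. With slide as a block in the model, which leaves 1 residual degree of freedom, 12 probes were called, of which 7 were among the 81. The t-test named in the study's methods, on the same values, called 21 probes after Benjamini-Hochberg adjustment, all of them among the 81, so that a list without a call in limma had none with it either. Counts before adjustment, given below for such lists, are of changes of at least 2-fold at an unadjusted p under 0.05. Of all 28171 tested probes, 836 (2.97%) met that rule, 385 (1.37%) upward and 451 (1.6%) downward, and with 1 probe per symbol it was met by 1.59% upward and 1.7% downward.

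Metallothioneins, which bind zinc and copper and are induced by metals, glucocorticoids and oxidative stress, rose in all members called. MT2A, the main form in most tissues, had levels of 1.93, 1.89, 2.39 and 2.14 in the controls and of 6.09, 5.75, 5.56 and 5.71 after irradiation. The irradiated levels were tightly grouped and more than 3 log2 units above the highest control. The change was 3.69 ± 0.18 (12.9-fold, adjusted p = 0.000182), the smallest adjusted p of the comparison. A second MT2A probe rose by 3.64 ± 0.31 (adjusted p = 0.00362), from 2.57, 2.82, 3.79 and 2.59 to 7.04, 6.54, 6.09 and 6.66.

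MT1X, an inducible form of the MT1 cluster, rose from 2.82, 2.69, 3.67 and 2.78 to 6.78, 6.63, 6.53 and 6.36. Its change was 3.59 ± 0.23 (12.0-fold, adjusted p = 0.00124), and it was called under all 28 alternative settings that were run for it. MT4, known from stratified epithelia, rose from 1.95, 2.26, 3.17 and 2.12 to 6.59, 5.85, 5.55 and 6.05 (3.64 ± 0.31, adjusted p = 0.00362). Both MT1E probes rose as well, by 3.18 ± 0.29 (adjusted p = 0.00513) and 3.45 ± 0.33 (adjusted p = 0.00631). A probe named LOC702286, annotated as a metallothionein 1F, had the lowest levels of those that rose, with 0.51, 0.85, 0.61 and 0.14 in the controls and 3.97, 3.51, 3.08 and 3.36 after irradiation (2.95 ± 0.23, 7.75-fold, adjusted p = 0.00267). Control 3 was the highest control for MT2A, MT1X, MT4 and MT1E, and even so stayed below every irradiated array.

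MT3, the form known from brain, was not called: its levels were -0.37, -0.08, -0.49 and -0.84 in the controls and -1.12, -0.67, -0.61 and -0.48 after irradiation, and the groups overlapped (change -0.28 ± 0.21, adjusted p = 0.537). Of the 5 metallothionein symbols tested, 4 were thus called up, against 0.134% of all 11903 symbols taken at 1 probe each. The median change of these 5 was 3.59, against -0.03 over all symbols, with 3.53 within slide 1, 3.68 within slide 2 and 3.44 to 3.81 when an array was left out. All 7 called metallothionein probes were called in each of the 8 fits that left out an array. With slide as a block 5 of the 7 were called, on the slides with both groups alone 3, and with scan day as a block 3, over changes of 2.54 to 3.72. The coding sequences of metallothioneins are close to identical, so that the signal of these probes cannot be assigned to single members of the family with certainty.

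**Figure D2:**
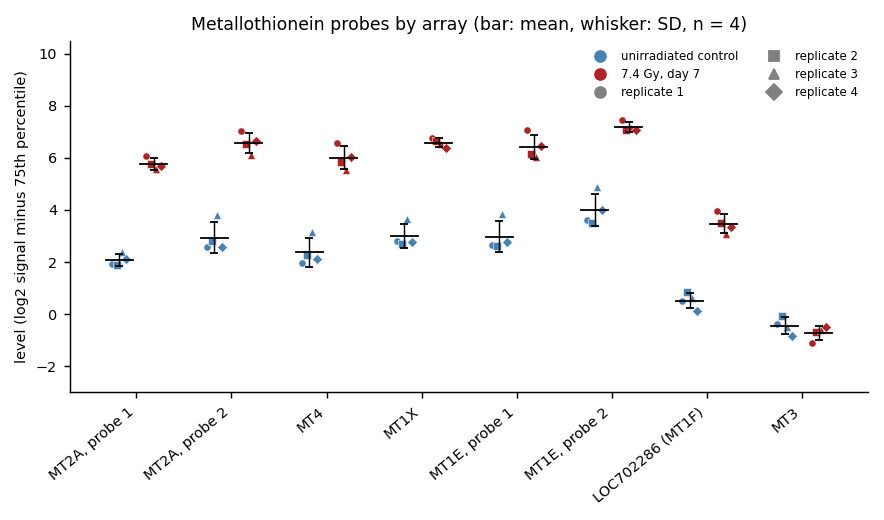
Levels of 8 metallothionein probes on the 4 control (blue) and 4 irradiated (red) arrays; symbols mark the replicate, bars the group mean and whiskers the SD. For 7 of the probes every irradiated array lies above every control, whereas for MT3 the groups overlap.

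Zinc transporters, which move the metal that metallothioneins bind, were not called: 0 of 14 tested passed in limma (2 downward before adjustment) and their median change was -0.07, with -0.16 to -0.02 when an array was left out. The lowest values belonged to the intestinal zinc importer SLC39A4 and to SLC30A10, an exporter of manganese. SLC39A4 had levels of 3.81, 2.93, 3.05 and 3.14 in the controls and of 0.89, 1.65, 2.34 and 1.05 after irradiation, without overlap (-1.75 ± 0.34, adjusted p = 0.0641). For SLC30A10 the change was -1.76 ± 0.40 (adjusted p = 0.0968).

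Hemoglobin showed the largest differences of the comparison. HBB, the beta chain of adult hemoglobin, had levels of 1.54, 2.14, 3.22 and 3.78 in the controls and of -4.80, -6.38, -7.15 and -5.45 after irradiation. The probe was well above background on every control but only on irradiated arrays 2 and 4, and irradiated arrays 1 and 3 give no more than an upper limit. The change from the values as read was -8.62 ± 0.60 (adjusted p = 0.00149). With arrays 1 and 3 set at their limits of -2.62 and -6.22, the lowest signal that passed background there, the change was -7.84, or 229-fold, and every irradiated array was more than 4 log2 units below the lowest control. As read, it was called whichever array was left out. A second HBB probe, at -0.99, -0.71, 0.51 and 0.96 in the controls, was well above background on 0 irradiated arrays, so that only a bound can be given. With each irradiated array at no less than the lowest signal of any probe that passed background there, it was 46.6-fold lower after irradiation. That limit is not this probe's own, so the bound is approximate. As read, the adjusted p was 0.02, and of the fits with an array left out only those without irradiated array 1 or irradiated array 3 kept the call.

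The alpha chain HBA2 was less uniform. A probe at 1.09, 1.36, 2.42 and 3.13 in the controls fell to -2.84, -2.25, -1.98 and -1.99 (-4.27 ± 0.44, 19.2-fold lower, adjusted p = 0.00972), was above background on all but irradiated array 1, and lost its call only without irradiated array 2. The other HBA2 probe, much brighter, had 7.99, 7.17, 7.44 and 7.70 in the controls and 6.76, 7.10, 7.73 and 6.77 after irradiation, with overlapping groups (-0.49, adjusted p = 0.398). The probes of this gene therefore disagree, and the alpha chain genes are near-identical copies. Red cell genes as a list did not move together: of 9 tested, HBB was called down (0.168% of all symbols were), the chaperone AHSP of the alpha chain changed by 0.27 (adjusted p = 0.718), the fetal chain HBG2 by -0.81 (adjusted p = 0.133), and the median was -0.45 (-0.20 without irradiated array 1). The list's median on the irradiated arrays, relative to the control means, was -0.84, -0.48, -0.03 and -0.08, and ALAS2, the erythroid enzyme of heme synthesis, was not above background there. The part of red cell content in the hemoglobin result was not tested.

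SERPINA2, a serine protease inhibitor gene beside SERPINA1, fell from 0.31, 0.85, 1.78 and 2.24 to -2.47, -1.92, -1.93 and -1.62 (-3.28 ± 0.40, 9.69-fold lower, adjusted p = 0.022), with irradiated array 1 not well above background. On slides 1 and 2 the differences were -2.24 and -2.47. Its call held in 3 of the 8 fits with an array left out.

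Of the p53 targets, EDA2R and DDB2 rose. EDA2R, a receptor of the TNF family, had levels of -3.02, -2.84, -2.51 and -3.04 in the controls and of -0.24, -0.44, -0.66 and 0.71 after irradiation. No irradiated array came within 1 log2 unit of a control, and the change was 2.70 ± 0.29 (6.48-fold, adjusted p = 0.0142), with 2.35 within slide 1 and 3.55 within slide 2. The call was lost without control 1, 2 or 4 or irradiated array 2, and the change ran from 2.41 to 2.87 over the 8 fits with an array left out. DDB2, which recognises ultraviolet damage in DNA, rose from 1.28, 1.21, 1.50 and 1.61 to 3.00, 2.64, 2.81 and 3.26 (1.53 ± 0.18, adjusted p = 0.02) and on a second probe by 1.54 ± 0.20 (adjusted p = 0.0265). Of the fits with an array left out, only that without irradiated array 3 called either DDB2 probe, over changes of 1.42 to 1.68.

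MDM2, the ubiquitin ligase that degrades p53, gave 2 answers. A dim probe, well above background on 3 arrays of each group, rose from -3.36, -3.43, -3.29 and -3.68 to -2.67, -2.34, -2.31 and -2.12 (1.08 ± 0.17, adjusted p = 0.0487), a call that no fit with an array left out kept, whereas the brighter probe changed by -0.21 (adjusted p = 0.653). Among the other targets, the stress cytokine GDF15 had 0.44, -0.49, 0.37 and 0.59 in the controls and 1.36, 2.29, 1.35 and 2.27 after irradiation without passing the test (1.59 ± 0.32, adjusted p = 0.0704). The kinase PLK2 changed by 1.11 (adjusted p = 0.0651) and the RNA-binding protein ZMAT3 by 1.06 (adjusted p = 0.123). CDKN1A, the p21 inhibitor of cyclin-dependent kinases, overlapped between groups at 0.24 ± 0.19, and the death effector BAX lay at 0.33 ± 0.15. In all, 2 of 29 tested targets were called up at 1 probe per symbol (0.134% of all symbols were), 19 lay above 0 (46.9% of all symbols), and in 9 all irradiated arrays were above all controls, against 6.27% of all symbols. The median of the 29 was 0.32, with 0.33 and 0.20 within slides 1 and 2, and 0.14 without irradiated array 4.

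EDA2R and HBB also belong to 25 genes that the study itself named on these animals, some of them from RT-qPCR in colon and not in jejunum, and they are no independent evidence of their direction. Of the 19 tested, at 1 probe per symbol, EDA2R was called up (0.134% of all symbols were) and HBB was called down (0.168%), while before adjustment 4 passed upward and 1 downward. MMP12, a macrophage elastase, had -4.12, -5.34, -5.16 and -4.79 in the controls and -4.12, -0.75, -3.01 and 0.15 after irradiation, with the probe not well above background on control 4 and irradiated array 1 (as read, 2.92 ± 0.84, adjusted p = 0.149). The collagenase MMP2 (0.89, adjusted p = 0.257) and the tight junction proteins CLDN2 (-0.91, adjusted p = 0.181) and CLDN4 (-0.75, adjusted p = 0.102) did not overlap between groups and were not called. MMP2 ran from 0.50 to 1.10 when an array was left out and differed by 0.56 within slide 1 and 2.21 within slide 2. The other members overlapped: LCN15 (1.40), the eosinophil attractant CCL11 (1.42), CCL23 (0.47), MMP9 (0.38, and 0.10 to 0.69 when an array was left out), IL8 (0.35), TNF (0.31), MMP3 (0.15), LCN2 (0.12), ITM2A (0.01), CLDN3 (-0.05), CLDN7 (-0.37), the brighter HBA2 probe (-0.49) and GALC (-0.51), with adjusted p from 0.249 to 0.985.

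Genes of G2 phase and mitosis were higher as a list after irradiation, although few passed the test singly. Of 36 tested, 35 had a change above 0 (46.9% of all symbols did), the median was 1.15, and 3 were called up (0.134% of all symbols were). In 26 of the 36 all irradiated arrays exceeded all controls (6.27% of all symbols), and in 0 were they all below (6.01%). Before adjustment of p, 22 rose by at least 2-fold at p under 0.05, against 1.59% of all symbols. UBE2C, the ubiquitin-conjugating enzyme of the anaphase-promoting complex, rose from -2.99, -2.37, -2.43 and -2.80 to -0.95, -0.87, -1.57 and -1.08 (1.53 ± 0.21, adjusted p = 0.0356). The centrosome kinase AURKA rose from 0.13, -0.11, -0.06 and -0.13 to 1.33, 1.66, 0.93 and 0.88 (1.25 ± 0.20, adjusted p = 0.0487). CDC25C, the phosphatase that starts mitosis, rose by 1.10 ± 0.17 (adjusted p = 0.0487).

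PTTG1, the securin that inhibits separase, rose on a probe other than the one that stood for it in the list, from 1.29, 1.23, 1.09 and 1.32 to 2.56, 2.83, 2.32 and 2.16 (1.23 ± 0.18, adjusted p = 0.0389). CEP55, which acts in the final separation of daughter cells and was not on the list, rose by 1.22 ± 0.19 (adjusted p = 0.0487). Irradiated arrays 1 and 2 were the higher in UBE2C, AURKA and PTTG1, and the groups did not overlap in any of them. Several well-known members missed the threshold by little: cyclin B1 (CCNB1, 1.28, adjusted p = 0.0511), PLK1 (1.15, adjusted p = 0.0545), topoisomerase TOP2A (1.32, adjusted p = 0.058) and CDK1 (1.36, adjusted p = 0.0596). The survivin gene BIRC5 changed by 0.09 ± 0.25 and the separase gene ESPL1 by -0.12, which was the lowest of the list.

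The size of the mitotic shift differed between arrays. Relative to the control means, the median of the list was 1.21, 1.47, 0.70 and 0.90 on the irradiated arrays and 0.16, 0.05, -0.07 and -0.15 on the controls. Irradiated arrays 1 and 2, the higher ones, were scanned on the second day, when no control was scanned. Within slide 1 the median difference was 0.61 with 35 of 36 above 0, and within slide 2 it was 0.83 with 32 above 0. With slide as a block it was 0.76 and with scan day as a block 0.87, against 1.15 without a block. The calls of UBE2C, AURKA, CDC25C and PTTG1 held in the fit without irradiated array 3 and in none of the other 7 with an array left out, in which the list's median ran from 0.99 to 1.24.

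**Figure D3:**
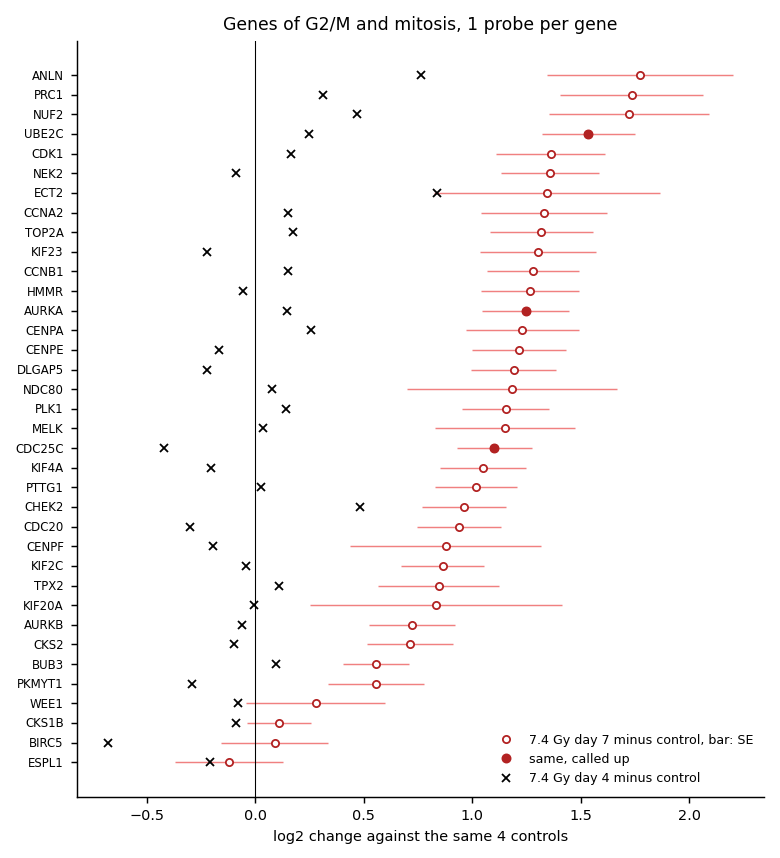
Log2 change of the 36 tested genes of G2 phase and mitosis against the 4 controls: red circles for 7.4 Gy on day 7 with the SE as a bar, filled where called up (UBE2C, AURKA and CDC25C), and black crosses for 7.4 Gy on day 4. On day 7 all but ESPL1 lie above 0, and the day 4 values lie lower, with a median of 0.01 against 1.15.

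DNA replication genes shifted less. The median of 32 was 0.63, with 28 above 0 (46.9% of all symbols were) and 9 with all irradiated arrays above all controls (6.27% of all symbols). Limma called 0 of their list probes (3 upward before adjustment), and within slide 1 the median was 0.08 against 0.60 within slide 2. Thymidylate synthase, TYMS, which makes the thymidine building block of DNA, rose on 3 further probes. The clearest had -1.86, -1.98, -2.02 and -2.00 in the controls and -0.26, 0.13, -0.72 and -0.13 after irradiation (1.72 ± 0.19, 3.29-fold, adjusted p = 0.0169), a call kept without irradiated array 1 or 3 only. The others changed by 1.50 ± 0.19 (adjusted p = 0.0241) and 1.80 ± 0.23 (adjusted p = 0.0237), and the probe that stood for the gene in the list, at 1.49 ± 0.26, missed the threshold (adjusted p = 0.0528). Thymidine kinase TK1 (0.94, adjusted p = 0.102) and the sliding clamp PCNA (0.86, adjusted p = 0.114) did not overlap between groups and were not called. The 26 DNA repair genes had a median of 0.27 and 0 were called (1 downward before adjustment).

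Markers of the crypt base had 0 calls in limma (4 upward before adjustment). Their median was 0.49 with 13 of 15 above 0, but -0.05 within slide 1 and 0.76 within slide 2. OLFM4, a secreted marker of crypt stem cells, had -1.80, -3.33, -2.69 and -3.19 in the controls and -1.11, 0.40, -1.85 and -0.35 after irradiation, with overlap (2.03 ± 0.50, adjusted p = 0.112). The crypt transcription factor SOX9 changed by 1.07 ± 0.32 (adjusted p = 0.161), and LGR5, the Wnt-enhancing receptor that marks stem cells, by 0.13 ± 0.17 (adjusted p = 0.741).

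**Figure D4:**
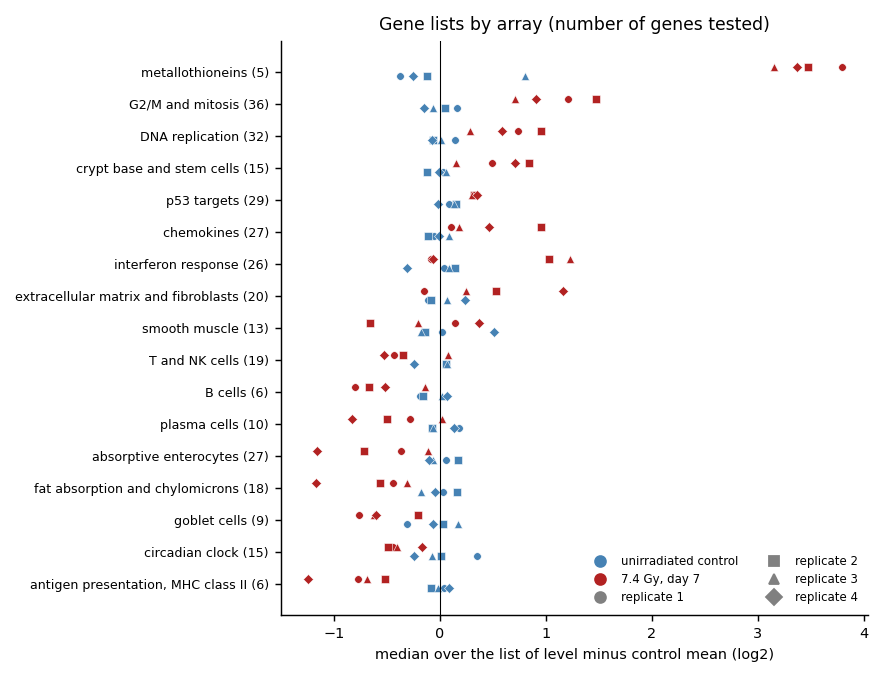
For 17 gene lists, the median over the list of each gene's level minus its control mean, on each of the 4 control (blue) and 4 irradiated (red) arrays; the number of genes tested stands in parentheses. The 4 irradiated arrays lie above all controls for metallothioneins, G2/M genes and p53 targets among others, below all controls for enterocytes, fat absorption and MHC class II, and among the controls in part for interferon response and extracellular matrix.

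Genes of absorptive enterocytes were lower as a list. Of 27 tested, 25 had a change below 0, 7 had all irradiated arrays below all controls (6.01% of all symbols did) and the median was -0.56. On their list probes, 0 were called down in limma (5 before adjustment). Other probes of 2 of them were: SLC15A1, the peptide transporter of the brush border, fell from 0.24, 0.14, 0.12 and 0.04 to -1.04, -0.83, -0.62 and -1.28 (-1.08 ± 0.17, adjusted p = 0.0487), and SLC2A2, the glucose and fructose exporter, from -0.61, -0.86, -0.65 and -1.15 to -1.89, -1.93, -1.70 and -2.17 (-1.11 ± 0.18, adjusted p = 0.0487). Both groups were compact and well apart in these 2 probes, and both calls held only without irradiated array 3. The trehalose-splitting enzyme TREH changed by -1.81 ± 0.35 (adjusted p = 0.066) and the aminopeptidase ANPEP by -1.21 (adjusted p = 0.108). Lactase, LCT, at -0.16 (adjusted p = 0.81) and villin, VIL1, the actin bundler of microvilli, at -0.41 (adjusted p = 0.404) overlapped between groups.

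CPS1, which feeds ammonia into citrulline and urea synthesis, went the other way. Its levels were 2.96, 3.01, 2.48 and 2.40 in the controls and 3.93, 4.25, 4.10 and 3.92 after irradiation, without overlap (1.34 ± 0.19, adjusted p = 0.038). It was the only enterocyte gene called up (0.134% of all symbols were), and the call held only without irradiated array 3, over changes of 1.23 to 1.44.

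The enterocyte shift varied among the irradiated arrays, with medians of -0.37, -0.72, -0.12 and -1.16 relative to the control means against -0.10 to 0.17 on the controls. Within slide 1, which carries irradiated array 3, the median difference was -0.13, and within slide 2, which carries irradiated array 4, it was -1.19. Smooth muscle genes, 13 tested and 0 called with or without adjustment, had medians of 0.14, -0.66, -0.21 and 0.37 on the irradiated arrays and of -0.18 to 0.51 on the controls, and matrix and fibroblast genes, 20 tested and 0 called (1 upward before adjustment), had -0.16, 0.53, 0.25 and 1.16 against -0.11 to 0.23. The part of the wall's muscle and connective tissue in the enterocyte values was not tested.

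Genes of fat absorption, some of them also enterocyte markers, were lower as a list. Of 18 genes tested, 17 had a change below 0 and the median was -0.59, but -0.16 within slide 1 against -1.55 within slide 2, -1.03 with slide as a block and -0.39 without irradiated array 4. CIDEC, which enlarges lipid droplets, was the member that fell: from 5.39, 4.97, 4.19 and 4.69 to 3.12, 1.86, 2.81 and 2.42 (-2.26 ± 0.33, 4.8-fold lower, adjusted p = 0.0389). Of its 4 probes, 3 were called and all lay between -2.43 and -1.80. The differences within slides 1 and 2 were -2.59 and -2.55, and the call of the probe given here held only without irradiated array 3. The cholesterol-esterifying enzyme SOAT2 (-1.07, adjusted p = 0.103) and CIDEB (-1.06, adjusted p = 0.108) did not overlap between groups and were not called, and apolipoprotein B, APOB, overlapped (-1.19, adjusted p = 0.198).

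Goblet cell genes, 9 tested, all had changes below 0 with a median of -0.61, and 0 were called in limma (1 downward before adjustment). KLF4, a differentiation factor of these cells, lay at -0.90 (adjusted p = 0.114) without overlap, and MUC2, the secreted mucin, at -0.43 (adjusted p = 0.52) with overlap. Of 16 genes of hormone-producing cells, 0 were called (2 upward and 1 downward before adjustment) and the median was 0.08, with -0.05 to 0.12 when an array was left out. Among them chromogranin A, CHGA, a granule protein, lay at 1.05 (adjusted p = 0.0952) and GIP, an incretin of the upper bowel, at -1.75 (adjusted p = 0.13).

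VEGFA, the main growth factor of blood vessels, fell with little spread between arrays. Its levels were 0.96, 0.85, 0.78 and 0.82 in the controls and -0.41, -0.43, -0.50 and -0.48 after irradiation. The change was -1.31 ± 0.13 (2.48-fold lower, adjusted p = 0.00731), it was called whichever array was left out, and it was -1.47 within slide 1 and -1.33 within slide 2. The call was lost when slide (-1.40) or scan day (-1.34) entered the model as a block. A second VEGFA probe fell by 1.11 on the log2 scale (SE 0.14, adjusted p = 0.022), and all 3 probes lay between -1.31 and -1.11. Of 17 endothelial genes 0 were called with or without adjustment, with a median of -0.28, which was -0.24 within slide 1, 0.34 within slide 2, -0.02 with slide as a block and -0.10 without irradiated array 1. The VEGF receptor KDR lay at -0.90 ± 0.26 (adjusted p = 0.154).

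Of the 6 MHC class II genes tested, which present antigen, 1 was called down (0.168% of all symbols were), all 6 had a change below 0 (53.1% of all symbols) and the median was -0.77. In 4 of them all irradiated arrays were below all controls, against 6.01% of all symbols. CD74, the invariant chain that guides class II molecules, fell from 4.86, 4.77, 5.03 and 4.87 to 3.91, 3.76, 4.11 and 3.65 (-1.02 ± 0.15, adjusted p = 0.0446), a call that held only without irradiated array 3. The class II chain MAMU-DPB lay at -0.78 (adjusted p = 0.0946) and MAMU-DRA at -0.64 (adjusted p = 0.231), both without overlap. B cell genes, which present antigen by class II, had 0 calls with or without adjustment and a median of -0.64 over the 6 tested, but 0.12 within slide 1 and -0.45 within slide 2. The change was below 0 in 4 of them, with CD79B at -0.90 (adjusted p = 0.0997) and BTK at -0.86 (adjusted p = 0.0955), and FCER2 lay at 1.06. The summary per array ran from -0.81 to -0.14 after irradiation and from -0.19 to 0.06 in the controls, and MS4A1 was not above background on an irradiated array. Macrophage and dendritic cell genes had 0 calls (1 upward and 1 downward before adjustment) and a median of -0.06 over 13, with -0.21 and 0.14 within slides 1 and 2 and -0.14 to 0.03 when an array was left out. The part of B cell content in the class II values was not tested.

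The clock gene PER2 fell as well. It had -0.59, -1.10, -1.06 and -1.54 in the controls and -3.58, -2.75, -2.76 and -2.77 after irradiation (-1.89 ± 0.26, adjusted p = 0.0356). It was below the background limit on irradiated array 1, the lowest, and the call held only without irradiated array 3. Over the 15 clock genes tested the median was -0.57 with 12 below 0. The clock repressors BHLHE40 (-1.03, adjusted p = 0.123) and CRY1 (-0.57, adjusted p = 0.163) were lower without overlap. The hour of sampling was not given in the sources used here.

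**Figure D5:**
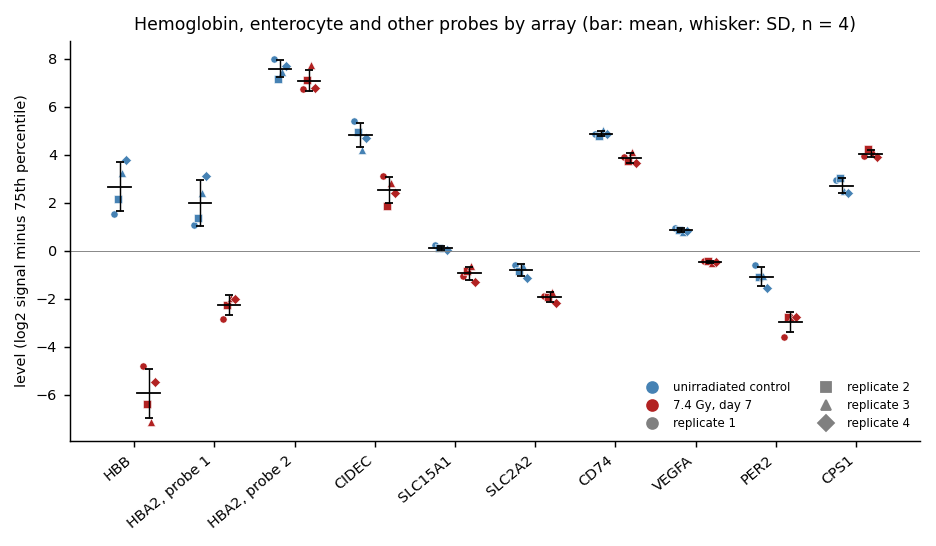
Levels of 10 probes on the 4 control (blue) and 4 irradiated (red) arrays; symbols mark the replicate, bars the group mean and whiskers the SD. HBB, not above background on irradiated arrays 1 and 3, and the first HBA2 probe show the largest gaps and VEGFA the tightest groups, the second HBA2 probe overlaps, and CPS1 alone is higher after irradiation.

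Inflammatory lists contained no called gene in limma, and before adjustment 2 interferon response genes passed upward, 5 chemokines upward and 1 downward, and 2 of 25 TNF and NF-kB targets upward and 1 downward. Interferon response genes, 26 tested, had a median of 0.49 (0.27 without irradiated array 2), with irradiated arrays 2 and 3 at 1.03 and 1.23, while arrays 1 and 4 lay at -0.09 and -0.07. Within slide 1 the median was 1.05 and within slide 2 it was -0.25. IFITM1, an antiviral membrane protein, had 3.42, 2.84, 2.65 and 3.06 in the controls and 3.75, 4.47, 4.55 and 4.03 after irradiation without overlap (1.21 ± 0.24, adjusted p = 0.0668). The 27 chemokines had a median of 0.47, which was 0.29 without control 1 and 0.30 without irradiated array 2, and the TNF and NF-kB targets one of 0.18, which ran from 0.10 without irradiated array 2 to 0.27 without irradiated array 1. Of the ligands, the monocyte attractant CCL2 lay at 1.43 ± 0.30 (adjusted p = 0.0772). TNF itself overlapped between groups (0.31 ± 0.27, adjusted p = 0.602). T and NK cell genes had a median of -0.37 over 19, with 0 called (1 upward before adjustment, the lymphoid factor LEF1 at 1.09, adjusted p = 0.0952), but -0.0021 within slide 1, -0.52 within slide 2 and -0.17 without control 1. Plasma cell genes had -0.44 over 10, with 0 called (1 downward before adjustment, MZB1 at -1.34, adjusted p = 0.117), but 0.09 within slide 1, -0.68 within slide 2 and -0.27 without control 4. In the Paneth cell and antimicrobial list, 15 tested, 0 were called (3 upward before adjustment), and the secreted protein REG1A lay at 1.19 ± 0.26 without overlap (adjusted p = 0.0862).

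The following lists of metabolism and stress had 0 calls on their list probes in limma, and the members with the smallest p are given with the counts before adjustment. Among 21 drug-metabolizing enzymes (1 upward and 1 downward), the oxidase CYP3A5 lay at -1.20 (adjusted p = 0.103) without overlap and the estrogen sulfotransferase SULT1E1 at 1.43 (adjusted p = 0.163). Of 8 aryl hydrocarbon receptor targets (0 in either direction), CYP1A1 overlapped at -1.83 ± 0.98. Cholesterol synthesis, 14 tested (2 downward), was led by the sterol sensor INSIG1 at -1.16 (adjusted p = 0.149) and the sterol carrier STARD4 at -1.12 (adjusted p = 0.182), and fatty acid oxidation, 15 tested (1 upward and 1 downward), by the mitochondrial entry enzyme CPT1A at -0.45 (adjusted p = 0.218) and the lipid droplet coat PLIN2 at -1.01 (adjusted p = 0.247). Of 15 iron genes (1 downward), heme oxygenase HMOX1 lay at -1.26 (adjusted p = 0.0641) and the ferritin chain FTL at -0.31 (adjusted p = 0.291), both without overlap. Purine breakdown, 14 tested (1 downward), held the uridine phosphorylase UPP1 at -0.93 (adjusted p = 0.15). The chaperone HSPA5 of the endoplasmic reticulum lay at -0.56 and its partner DNAJC3 at -0.50 among 21 stress genes (0 in either direction). Of 11 glucocorticoid-responsive genes (1 downward), the kinase SGK1 lay at -1.31 (adjusted p = 0.114) and the phosphatase DUSP1 at -0.98 (adjusted p = 0.115), neither with overlap.

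Regional markers of the bowel had 0 calls in limma as well. Of 11 distal markers (1 upward and 1 downward before adjustment), the alkaline sphingomyelinase ENPP7 lay at -1.74 (adjusted p = 0.0704) without overlap and the glucagon gene GCG at 1.34 (adjusted p = 0.187). Among 14 proximal markers (3 downward), the purine enzyme ADA lay at -3.05 ± 1.01 (adjusted p = 0.191), with overlap. Of 6 tuft cell genes (0 in either direction), the factor GFI1B lay at -0.91 (adjusted p = 0.0958) without overlap and the marker DCLK1 at -0.66 (adjusted p = 0.207), both dim on 1 irradiated array. Tight junction genes, 11 tested (0 in either direction), included the polarity protein PARD3 at -0.83 (adjusted p = 0.128) without overlap. Of 23 genes of Wnt, Notch and BMP signalling (1 upward and 1 downward), the ligand BMP7 overlapped at 1.95 ± 0.75. Among crypt and repair genes, the Wnt receptor ligase ZNRF3 (0.67, adjusted p = 0.109), the base excision enzyme APEX1 (0.87, adjusted p = 0.0772) and the crosslink repair protein FANCI (0.66, adjusted p = 0.126) lay higher without overlap.

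The lists of coagulation, complement, platelets, neutrophils, mast cells and enteric neurons had 0 calls too. Of 18 coagulation genes (1 downward before adjustment), the anticoagulant PROC lay at -1.52 (adjusted p = 0.0754) and the protease inhibitor A2M at 0.78 (adjusted p = 0.241), both without overlap. Complement genes, 11 tested (1 upward), were led by the membrane attack component C7 at 1.28 (adjusted p = 0.159) without overlap. Platelet and megakaryocyte genes, 5 tested, neutrophil genes, 6 tested, mast cell genes, 9 tested, and genes of enteric neurons and glia, 13 tested, had 0 passing before adjustment. Among them were the platelet receptor chain GP9 at -0.39 and the granulocyte receptor CSF3R at -0.43, with the chymase CMA1 at 0.56 and neuronal tubulin TUBB3 at -0.58.

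Further genes outside these lists were called. Carnosinase CNDP1, a serum dipeptidase, rose by 2.90 from -4.55, -4.18, -3.93 and -5.46 to -2.09, -0.66, -2.07 and -1.69 (adjusted p = 0.0356), a dim probe above background on 3 of the controls. ACAD9, which helps to assemble respiratory complex I, rose from 0.01, -0.34, -0.24 and 0.23 to 1.20, 1.26, 1.44 and 1.22 (1.36 ± 0.17, adjusted p = 0.022). The antiviral cytidine deaminase APOBEC3H rose by 1.17 ± 0.15 (adjusted p = 0.0242). In these 3, and in LOC722740 (1.34 ± 0.21, adjusted p = 0.0484), a probe without a described product that no fit with an array left out called, the groups were clearly separate. The calls of the first 3 held in 1 or 2 of the 8 fits with an array left out, the one without irradiated array 3 among them.

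Among the genes that fell, the kidney and gut membrane dipeptidase DPEP1 went from 3.35, 3.49, 3.24 and 3.79 to 2.02, 2.06, 2.31 and 2.09 (-1.34 ± 0.16, adjusted p = 0.022). IFRD1, a transcriptional co-regulator, went from 0.42, 0.53, 0.57 and 0.20 to -1.05, -1.15, -1.28 and -0.74 (-1.49 ± 0.17, adjusted p = 0.0181), and by -1.52 on a second probe. The membrane traffic GTPase RAB30 went from 3.18, 2.79, 3.00 and 2.75 to 1.93, 1.16, 1.40 and 1.10 (-1.53 ± 0.21, adjusted p = 0.0356), a call kept only without irradiated array 1 or 3. None of these overlapped. The lipid-transfer protein gene C2CD2L changed by -1.46 ± 0.18 (adjusted p = 0.022), called only without irradiated array 1 or 3, and LOC721689, annotated as T-box 10, by -1.79 ± 0.26 (adjusted p = 0.0444). OXT, the symbol of oxytocin, changed by -1.29 ± 0.20 (adjusted p = 0.0487) and LOC718349, annotated as a leukotriene B4 hydroxylase, by -1.22 ± 0.19 (adjusted p = 0.0487), these last 3 called only without irradiated array 3. GPRC5A, an orphan receptor of epithelia, changed by -2.67 ± 0.33 (adjusted p = 0.0225) with 3 of 4 irradiated arrays above background. The glycosyltransferase B3GNT3 (-1.20 ± 0.14, adjusted p = 0.02), the creatine transporter SLC6A8 (-1.66 ± 0.26, adjusted p = 0.0487), the mitochondrial regulator PPARGC1A (-1.32 ± 0.21, adjusted p = 0.0487) and the death protein BCL2L11 (-1.20 ± 0.16, adjusted p = 0.0251) fell too. Other probes of some of these genes changed less and were not called. The second probe lay at -0.63 for PPARGC1A and at -0.68 for LOC718349. The 3 probes of B3GNT3 lay between -1.20 and -0.77, with 1 called. The BCL2L11 probe was above background on 3 of 4 irradiated arrays. Of the fits with an array left out, that without irradiated array 3 alone called B3GNT3, PPARGC1A, BCL2L11, DPEP1 and GPRC5A, and none called SLC6A8.

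The same 4 arrays were also set against 6.7-Gy TBI on day 7, in a model of all 24 arrays. The call rule found 0 probes (0%) in limma, 0 with the methods' t-test, while 207 probes changed at least 2-fold with p under 0.05 before adjustment. The smallest adjusted p was 0.589. Metallothioneins lay 0.59 to 1.02 higher after the higher dose without a call, with MT1X at 6.58 ± 0.18 (SD) after 7.4 Gy and 5.78 ± 0.89 after 6.7 Gy. EDA2R differed by 0.45 and UBE2C by 0.46, each less than the SD of the 6.7-Gy arrays (adjusted p = 0.82 and 0.852).

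Against day 4 after the same dose, in the same model, 463 probes were called (1.64%), 240 higher on day 7 (0.852%) and 223 lower (0.792%). This count fell to 184 without the day 4 replicate 1, 246 without the day 4 replicate 3 and 249 without the day 7 replicate 1, and rose to 698 without the day 4 replicate 4 and 681 without the day 7 replicate 4. When only the 8 arrays of these groups entered the fit, 12 probes were called. The comparisons of each day with control share the 4 controls, and their values are given side by side. Metallothioneins had a median of 3.27 over control on day 4 and 3.59 on day 7, and no probe differed by a call between days. The p53 targets had 0.89 on day 4 and 0.32 on day 7, and the mitotic genes 0.01 and 1.15.

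Tested directly, EDA2R was 1.13 lower on day 7 than on day 4 in log2 terms (-1.13, adjusted p = 0.0329). The main DDB2 probe differed by -1.23 (adjusted p = 0.00237) and GDF15 by -2.26 (adjusted p = 0.00161). Of the 36 mitotic genes, 14 were called higher on day 7 and 0 lower, against 0.832% and 0.899% of all symbols. CDC25C was among them with 1.52 (adjusted p = 0.0164) and AURKA with 1.10 (adjusted p = 0.0265). CPS1 was at 2.71 ± 0.37 (SD) on day 4, level with the controls at 2.71 ± 0.32, and at 4.05 ± 0.16 on day 7 (1.34, adjusted p = 0.00149). CD74 was likewise at 4.88 on day 4 and in the controls and at 3.86 on day 7 (-1.02, adjusted p = 0.00951).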

How the data were processed

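Total RNA from jejunum was labelled with Cy3 and hybridized to 1-color arrays. Per the file headers, the authors extracted the intensity of each spot with Feature Extraction 11.0.1.1, which subtracts background, with probes placed on build rheMac2. Their processed log2 table from GeneSpring GX 11.0 was deposited as well; it was found to hold the log2 signal minus the 75th percentile of the array and minus the median over arrays, and served as an alternative and as the source of 23674 probe symbols. Another 121 probes were named through RefSeq accessions (assembly T2T-MMU8v2.0), and 19808 had no symbol.

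Control spots were left out, spots of a probe were averaged, and the log2 intensity minus the array's 75th percentile was fitted with lmFit and eBayes of limma 3.58.1 (R 4.3.3) on the 8 arrays. Direct contrasts with 6.7 Gy day 7 and 7.4 Gy day 4 came from a model of all 24 arrays in 7 groups. Gene lists used 1 probe per symbol, chosen for its highest mean level across all arrays of the study, and received no set test. Probes dim on every array of a group were given as bounds. Genes were taken for naming by rule, with some that were not called left to the counts of their list: the 12 largest rises and 12 largest falls among called symbols above background on all 8 arrays, each called probe of a list member, the 2 members of each of the 47 lists with the smallest p, the genes named by the study, and probes measured in 1 group only; others named here were chosen after their values were seen. The comparison and the lists were chosen with earlier results of these data known. The procedure was tested on simulated data. The number of arrays limits precision. Groups came from titles. Replicate numbers did not pair the arrays: deviations from the group means correlated at 0.05, 0.05, -0.16 and 0.06 for numbers 1 to 4. Alternatives covered background correction, scaling, filters, slide and scan day, the replicate block, other tests and leaving out arrays. Figures were drawn with matplotlib 3.10.9.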

Additional observations from a re-analysis of the deposited data

Results flagged for a closer look

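In 13 of the 274 groups of 4 arrays examined, 1 array stood apart from the other 3 by a gap over the whole range above Dixon's critical value for 4 values; chance gives this in about 1 of 20 groups, and 13 of 274 is no more than that. Among irradiated arrays these were the second HBB probe (0.862, array 1 highest), PER2 (0.975, array 1 lowest), the purine enzyme ADA (0.841), where array 3 stood at 4.92 against 0.37 to 1.10 on the others, the calcium pump ATP2B1 (0.861), the aryl hydrocarbon target TIPARP (0.843), the chemokine IL8 (0.854) and REG1A (0.843, array 3 lowest). Among controls they were the Wnt ligand WNT9B (0.841), heme oxygenase HMOX1 (0.833, control 2 lowest), the macrophage receptor CSF1R (0.884, control 1 highest), histidine decarboxylase HDC (0.881), MT1E (0.889, control 3 highest) and MT1X (0.86, control 3 highest). Leaving out the array in question did not end the calls of MT1E or MT1X, whereas that of PER2 was lost and that of the second HBB probe was kept without irradiated array 1. The other probes named here were not called.

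Between day 7 and day 4 after 7.4 Gy, tested in limma over all 24 arrays, the following genes named by rule differed in log2 level. Lower on day 7 were the lipocalin LCN15 (-3.27, adjusted p = 0.00233), the kinase SGK1 (-1.97, adjusted p = 0.00195), the homing receptor CCR7 (-1.93, adjusted p = 0.0227), DPEP1 (-1.49, adjusted p = 0.0122) and the plasma cell factor PRDM1 (-1.28, adjusted p = 0.0106). So were DDB2 on its probes (-1.23 and -1.21, adjusted p = 0.00237 and 0.0313), the dim MDM2 probe (-1.23, adjusted p = 0.00372), the phosphatase DUSP1 (-1.13, adjusted p = 0.00846), EDA2R (-1.13, adjusted p = 0.0329) and MAMU-DPB (-1.11, adjusted p = 0.026). The endothelial receptor KDR (-1.03, adjusted p = 0.0343), CD74 (-1.02, adjusted p = 0.00951), CSF1R (-1.01, adjusted p = 0.00899) and the chemokine CXCL14 (-1.01, adjusted p = 0.0101) were lower too. Higher on day 7 were the mucosal defence protein DMBT1 (2.19, adjusted p = 0.0375), CDC25C (1.52, adjusted p = 0.0164), CPS1 (1.34, adjusted p = 0.00149), the glucagon gene GCG (1.28, adjusted p = 0.0413), PTTG1 (1.23, adjusted p = 0.00986), AURKA (1.10, adjusted p = 0.0265) and TK1 (1.03, adjusted p = 0.0443). Of the genes named outside the rule, GDF15 (-2.26, adjusted p = 0.00161), GPRC5A (-1.93, adjusted p = 0.0105) and APOBEC3H (-1.27, adjusted p = 0.00128) were lower, as were APOB (-1.25), ZMAT3 (-1.11) and ANPEP (-1.10) by the same rule for calls. CEP55 (1.20, adjusted p = 0.0119) was higher, as were CDK1 (1.20), TOP2A (1.14), CCNB1 (1.13) and PLK1 (1.01).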

How the results depend on the processing

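Against control, 81 probes were called (33 up, 48 down), 89 with the percentile over probes detected on all arrays, 65 with quantile normalization and 81 in the authors' log2 table. Other settings moved the count: normexp background correction, run on the median spot signal, gave 183, a common floor 45, no filter on dim probes 11, filters on every array of either or of both groups 219 and 190, 1 probe per symbol 46, all 24 arrays in a model 366, slide as a fixed block 12 and as a random block 183, the slides with both groups 7, scan day as a block 4, the methods' t-test 21, eBayes with trend and robust fitting 231 and array weights 171. Chosen after seeing the data, slide as a block over all 24 arrays gave 323, and leaving out control 4 and irradiated array 1 together 12. Leaving out 1 array gave 11 to 229. With the replicate number as a block, 3 probes were called, although the numbers did not pair the arrays; day 7 against day 4 then gave 454 and the doses 0. Day 7 against day 4 gave 463, but 261 without a filter, 12 on the 8 arrays alone, 0 with the methods' t-test (700 before adjustment) and 184 to 698 when an array was left out; with the percentile over detected probes it gave 188 up and 266 down, against 240 and 223. Between doses each setting gave 0. Of the named genes' values under alternatives, 3173 kept direction and side of the threshold, 80 gained the threshold, 505 lost it and 24 turned, none of a called gene. These were NFE2 (0.019 with a common floor, -0.54 to 0.0044 leaving out an array), ACTG2 (0.032), TPM1 (0.17) and TNF (-0.081) over 24 arrays with slide as a block, CLDN3 (0.011 without control 3, 0.0019 without irradiated array 3), MMP3 (-0.18 to 0.41) and IL8 (-0.32 to 0.66), turned without irradiated array 4, and LCN2 (-0.21 with slide as a block or the slides with both groups, -0.27 with scan day, -0.26 to 0.32 leaving out an array). CCL23 turned to -0.73 with scan day and lay at -0.17 to 1.27 leaving out an array. ITM2A turned to -0.018 with normexp, -0.0090 with array weights, -0.13 over 24 arrays with slide, -0.080 without control 4 and irradiated array 1, and lay at -0.15 to 0.15 leaving out an array. The causes were not tested. With 4 arrays a group, changes near 2-fold are at the limit of what could be called, as the rule itself asks for at least 2-fold. Of simulated log2 changes of 1 and 2 in this comparison, 30% and 80% were recovered, with 4 false calls. Recovery among probes dim on irradiated array 1 or control 4 was not tested.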
